A study of Mus musculus with 30 samples.

Results

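The genes described here encode the enzymes that modify foreign and endogenous small molecules: the cytochromes P450 (Cyp), glutathione S-transferases (Gst), aldehyde dehydrogenases (Aldh), UDP-glucuronosyltransferases (Ugt) and sulfotransferases (Sult). They were taken by symbol, as every gene whose name begins with Cyp and a digit, Gst, Aldh, Ugt and a digit, or Sult, and whose probe set carried a single gene symbol. The symbols alone decided membership. It gave 77 of the 8251 genes measured: 40 Cyp, 15 Gst, 10 Aldh, 9 Sult and 3 Ugt genes. Where several probe sets named a gene, the probe set of highest mean level over the arrays stood for it, and the others served as a check for 19 genes.

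Gene expression was measured on 30 Affymetrix MG_U74Av2 arrays of the left ventricle of C57BL/6 mice at 2 months of age, with the RNA of 2 animals pooled for each array. The mice were wild type or HCM, male or female, and fed a soy-based or a casein-based rodent diet, which gave 8 groups: soy wild type, casein wild type, soy HCM and casein HCM, each in males and in females. The labels do not spell out HCM, usually hypertrophic cardiomyopathy in cardiac genetics, and name no mutation, promoter or founder line. Each group held 4 arrays, except the male and the female soy HCM groups with 3 each, and p-values reflect the spread between pools, not between animals. Values are log2 expression, a change is casein minus soy or HCM minus wild type on that scale with its standard error, and a gene is said to rise or fall where its adjusted p in limma is below 0.05.

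Xenobiotic enzymes work in phases. In phase I a cytochrome P450, a haem enzyme fed with electrons by its reductase, oxidises the molecule, and aldehyde dehydrogenases turn reactive aldehydes into acids. In phase II a transferase attaches glutathione, sulfate or glucuronic acid, which makes the product water soluble. Many of the P450s also make or break down steroids, bile acids, vitamin D, retinoids and arachidonic acid products. The liver carries most of this system, while the heart is known for Aldh2, mu- and pi-class glutathione transferases and the P450 epoxygenases and omega-hydroxylases of arachidonic acid. Soy-based diets commonly carry isoflavones, plant phenols that phase II enzymes conjugate, but the labels give no composition for either diet.

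The arrays differed in more than diet and genotype. The bacterial Dap control read 7.51 ± 0.28 (SD, n = 8) on the casein HCM arrays and at most 4.70 on the other arrays. The difference between the BioD and BioC hybridization controls divided the casein wild-type arrays into set A (replicates 1 and 2 of each sex, 2.17 to 2.44) and set B (replicates 3 and 4, 0.50 to 0.63). The soy HCM arrays, at 2.35 to 2.45, overlapped set A, so these controls did not separate all combinations of diet and genotype. The labels name no batch. The sets used below were soy wild type, soy HCM, casein HCM and the A and B arrays of casein wild type, so for them diet and array set cannot be told apart. Replicate 2 of the male soy wild-type group stood apart, with a median correlation of 0.959 to its own group against at least 0.988 for the other arrays. Without it the diet effect in wild type was called for 47 members (16 higher, 31 lower) and the diet effect in HCM for 57, close to the counts over all arrays given below. Of all genes, 23.6% were then called higher and 27.8% lower in wild type, and 34.5% and 32% in HCM. Of 58 named values, 57 kept their sign and their side of the threshold without that array. The exception was the HCM effect on soy of Cyp4b1, at 0.18 with an adjusted p of 0.0737.

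Heart muscle and liver markers were checked on all arrays. The summed linear level of 7 cardiomyocyte genes was 30400 to 39200 on the soy wild-type arrays, 44600 to 50300 on casein wild type, 42200 to 45200 on soy HCM and 52000 to 56500 on casein HCM. All 7 were higher on casein in wild type, and in HCM 6 were higher and 1 was lower. The part of this shift in the results on the enzyme genes was not tested, and in whole ventricle fewer cells of a type and less RNA per cell cannot be told apart. The defining liver gene Alb read 4.93 to 5.81, and Alb, Ttr, Fabp1, Fgb and Tat were among the dimmest 40% of genes, while Apoa1 (5.91 to 7.24) and Apoa2 (6.63 to 7.37) were not. On casein 1 of the 7 liver markers was higher and 2 were lower in wild type, and in HCM 3 were higher, with Fabp1 at 0.71 and Apoa2 at 0.35, and 3 were lower. The sum of 7 liver markers was 363 to 536 on soy wild type, 314 to 400 on casein wild type, 338 to 396 on soy HCM and 352 to 441 on casein HCM. Of the enzyme genes themselves, 43 lay among the dimmest 40% (26 Cyp, 7 Sult, 5 Aldh, 3 Ugt and 2 Gst), where a change describes a probe set close to the background of the array.

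On the casein diet, in both genotypes, most P450 genes that changed were lower and the glutathione transferases divided. On the probe sets used, 6 of 10 aldehyde dehydrogenases were higher in wild type, and 4 in HCM, where 31.9% of all genes were. With the array set fitted as a random block, the HCM rises of Aldh1a1, Aldh2 and Aldh3a2 did not pass (adjusted p = 0.0778, 0.167 and 0.108 in limma). In HCM, however, second probe sets of Aldh18a1 (-0.30), Aldh1a1 (-0.23) and Aldh3a2 (-0.40) were called lower. In wild type the rises of Aldh1a2 and Aldh1a3 did not pass with casein set A alone. In wild type 47 of the 77 members passed the test (61.0%), 15 higher and 32 lower, against 47% of all genes, 21.6% higher and 25.4% lower. In HCM 54 passed (70.1%), 21 higher and 33 lower, against 62.1% of all genes, 31.9% higher and 30.1% lower. The median change of the members was -0.12 in wild type, beside -0.02 over all genes, and -0.07 in HCM, beside 0.01. With each array centred on its median the wild-type split became 20 higher and 23 lower, and that of all genes 30.1% higher and 16.8% lower.

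The families differed in these counts. Of 40 Cyp genes, 4 rose and 23 fell in wild type (median -0.20), and 7 rose and 23 fell in HCM (median -0.21). After centring the counts were 7 and 16 in wild type and 8 and 19 in HCM. Of 10 Aldh genes, 6 rose and 1 fell in wild type (median 0.18), and 4 rose and 2 fell in HCM (median 0.11). The 15 Gst genes gave 5 higher and 4 lower in wild type and 6 higher and 5 lower in HCM (5 and 6 with quantile normalization added). Of 9 Sult genes, none rose and 2 fell in wild type (1 and 1 after centring or added quantile normalization), while 4 rose and 1 fell in HCM. Among the 3 Ugt genes, 2 fell in each genotype. Changes over 1.5-fold were fewer: 4 members higher and 3 lower in wild type, against 2.39% and 1.19% of all genes, and 3 higher and 8 lower in HCM, against 8% and 5.55%.

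Members in the dimmest 40% of genes and brighter members were counted apart. In wild type the 43 dim members gave 6 higher and 17 lower, where all dim genes gave 9.21% higher and 27.6% lower. The 34 brighter members gave 9 higher and 15 lower, where all brighter genes gave 29.9% higher and 23.9% lower. In HCM the dim members gave 7 higher and 19 lower, against 23.4% and 32.2% of dim genes, and the brighter members 14 and 14, against 37.6% and 28.7%.

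**Figure D1:**
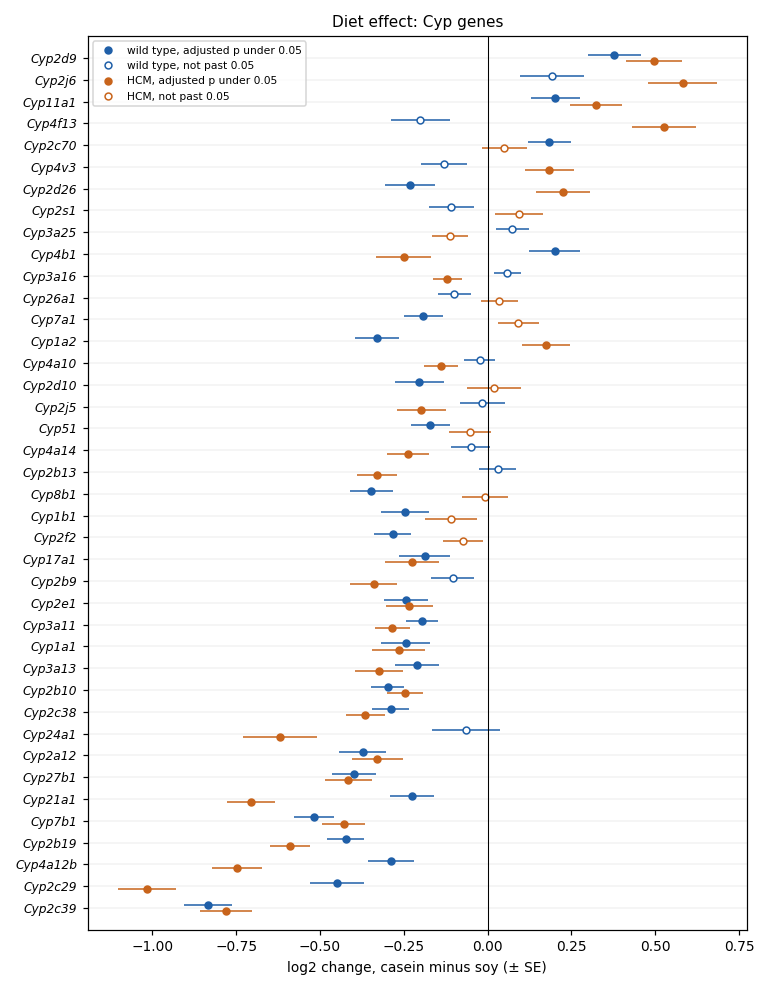
Diet effect of the 40 Cyp genes as log2 change, casein minus soy, on the horizontal axis, with 1 line per gene and bars of 1 standard error; blue is wild type, orange is HCM, and filled points passed an adjusted p of 0.05. Most filled points lie left of 0 in both genotypes, with Cyp2c39 lowest in wild type at -0.83 and Cyp2c29 lowest in HCM at -1.02.

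Cyp2c39 and Cyp2c29, members of the Cyp2c family that oxidises arachidonic acid, retinoids and drugs, fell in both genotypes. Cyp2c39 read 6.79 to 7.21 (median 6.90) on the soy wild-type arrays and 5.82 to 6.47 (median 6.07) on the casein wild-type arrays. In HCM it read 6.74 to 7.04 (median 6.84) on soy and 5.76 to 6.42 (median 6.08) on casein. Every casein array of a genotype lay below every soy array of it. The changes were -0.83 ± 0.07 in wild type (adjusted p = 4.74e-10 in limma) and -0.78 ± 0.08 in HCM (1.48e-09), and the diet by genotype interaction, the change in HCM minus that in wild type, was 0.05 ± 0.11 (0.712).

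Cyp2c29, an epoxygenase of arachidonic acid, is among the dim genes. It read 4.48 to 4.99 (median 4.77) on soy wild type, 4.10 to 4.62 (median 4.24) on casein wild type, 4.72 to 4.99 (median 4.85) on soy HCM and 3.61 to 4.16 (median 3.80) on casein HCM. The wild-type ranges overlapped, and the HCM ranges did not. It fell by 0.45 ± 0.08 in wild type (adjusted p = 4.54e-05 in limma) and by 1.02 ± 0.09 in HCM (8.11e-11), and the interaction was -0.57 ± 0.12 (0.000312). Cyp2c38, of the same family and outside the rule for named genes, fell by 0.29 ± 0.05 and 0.36 ± 0.06.

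Cyp7b1, the 7-alpha-hydroxylase of oxysterols and dim here, read 4.90 to 5.33 (median 5.18) on soy and 4.47 to 4.75 (median 4.60) on casein in wild type. In HCM it read 4.84 to 5.07 (median 4.97) and 4.33 to 4.67 (median 4.58). Neither genotype's diets overlapped. It fell by 0.52 ± 0.06 (adjusted p = 7.96e-08 in limma) and by 0.43 ± 0.07 (2.1e-06); its second probe set, at -0.07 and 0.10, did not pass in either genotype. Cyp21a1, the 21-hydroxylase of steroids, fell in both genotypes, by 0.22 ± 0.07 and by 0.71 ± 0.07. On soy HCM arrays it read 8.28 to 8.55 (median 8.37) and on casein HCM arrays 7.48 to 7.84 (median 7.73), with no overlap, while the wild-type ranges of 8.05 to 8.80 (median 8.42) and 8.02 to 8.38 (median 8.20) overlapped. Its wild-type fall did not pass with casein set A alone (0.115). The interaction for Cyp21a1 was -0.48 ± 0.10 (0.000198).

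Cyp24a1, which inactivates vitamin D by 24-hydroxylation and is dim here, fell in HCM by 0.62 ± 0.11 (adjusted p = 1.98e-05 in limma). Its soy HCM values of 4.16 to 4.52 (median 4.27) lay above the casein HCM values of 3.42 to 4.0 (median 3.66). Its wild-type change was -0.06 ± 0.10 and did not pass; that value was 0.15 with casein set A alone and -0.28 with set B alone. The second probe set of Cyp24a1 passed in HCM in the same direction, at -0.17. Cyp27b1, which activates vitamin D and is outside the rule for named genes, fell in both genotypes, by 0.40 ± 0.07 and 0.42 ± 0.07.

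The omega-hydroxylases and epoxygenases of fatty acids did not move together. Cyp4a12b, an omega-hydroxylase of arachidonic acid, read 7.45 to 8.05 (median 7.60) on soy and 7.15 to 7.60 (median 7.28) on casein in wild type, with overlap. The HCM values were 7.49 to 7.78 (median 7.64) and 6.66 to 7.14 (median 6.91), without overlap. It fell by 0.29 ± 0.07 and by 0.75 ± 0.07 (adjusted p = 0.0011 and 1.51e-09 in limma). Cyp4f13, of the family that hydroxylates leukotrienes, read 6.35 to 6.53 (median 6.40) on soy HCM and 6.8 to 7.22 (median 6.91) on casein HCM, without overlap. It rose by 0.53 ± 0.09 in HCM (2.59e-05), where its other probe set rose by 0.32. In wild type it read 6.48 to 7.43 (median 6.71) and 6.28 to 6.79 (median 6.50), with overlap, and its change of -0.20 ± 0.09 did not pass (0.0618). Cyp2j6, of the family of cardiac epoxygenases and dim here, read 3.47 to 3.64 (median 3.50) on soy HCM and 3.90 to 4.38 (median 4.04) on casein HCM, without overlap. It rose by 0.58 ± 0.10 in HCM (1.81e-05), and its wild-type change of 0.19 ± 0.09 did not pass (0.0969).

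Cyp2d9, a steroid hydroxylase best known from male mouse liver, was the P450 gene with the highest change in wild type. It read 7.29 to 7.66 (median 7.53) on soy and 7.67 to 8.27 (median 7.76) on casein in wild type. The HCM arrays read 7.42 to 7.56 (median 7.52) and 7.83 to 8.31 (median 7.99). The casein arrays lay above the soy arrays in each genotype, in wild type by a narrow gap. The changes were 0.38 ± 0.08 (adjusted p = 0.000226 in limma) and 0.50 ± 0.08 (1.08e-05). Cyp11a1, which makes pregnenolone from cholesterol and is outside the rule for named genes, was the other P450 gene that rose in both genotypes, by 0.20 ± 0.07 and 0.32 ± 0.08.

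The P450 genes known as targets of the xenobiotic receptors, taken here by that role and not by the rule for named genes, were dim for the most part. Cyp1a1, a target of the aryl hydrocarbon receptor, fell by 0.24 ± 0.07 and 0.27 ± 0.08 in wild type and HCM, though its second probe set passed in neither. With casein set A alone the wild-type change of Cyp1a1 was -0.09 and did not pass (adjusted p = 0.378 in limma). With the array set fitted as a random block Cyp1a1 passed in neither genotype (0.0682 and 0.0564). Cyp1a2, a further target of that receptor, went opposite ways, at -0.33 ± 0.07 in wild type and 0.17 ± 0.07 in HCM. Its HCM rise did not pass with that block (0.179). Cyp2b10, a target of the constitutive androstane receptor, fell by 0.30 ± 0.05 and 0.25 ± 0.05. Cyp3a11, a target of the pregnane X receptor, fell by 0.20 ± 0.05 and 0.28 ± 0.05. The PPAR-alpha targets Cyp4a10 and Cyp4a14 did not pass in wild type and fell in HCM, by 0.14 ± 0.05 and 0.24 ± 0.06. With the block the HCM fall of Cyp4a10 did not pass (adjusted p = 0.140 in limma).

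**Figure D2:**
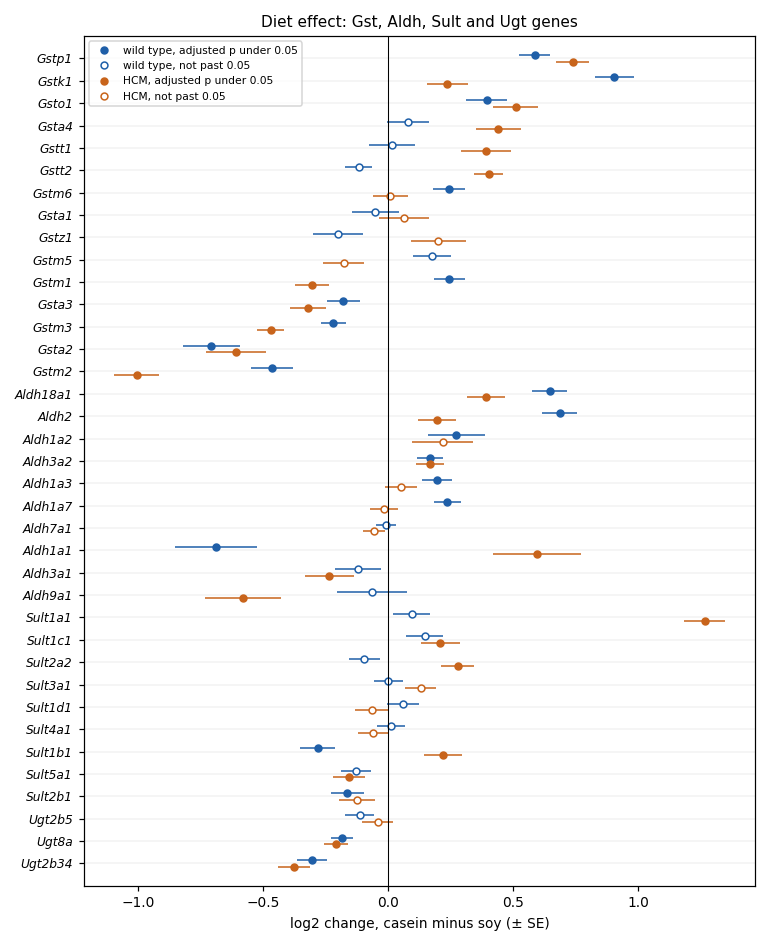
Diet effect of the Gst, Aldh, Sult and Ugt genes as log2 change, casein minus soy, on the horizontal axis, drawn as for the Cyp genes with bars of 1 standard error. Gstk1 is highest in wild type at 0.90 and Sult1a1 in HCM at 1.26, Gstm2 is lowest in HCM at -1.01, and Aldh1a1 lies at -0.69 in wild type and 0.59 in HCM.

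Among the glutathione transferases, Gstp1, Gstk1 and Gsto1 rose on casein in both genotypes, and Gsta2, Gsta3, Gstm2 and Gstm3 fell in both, though the second probe set of Gstm2 rose by 0.43 and 0.23. The promoters of 4 of these are shown, those with the largest mean absolute change over both genotypes on the probe sets used. They are shown because glutathione transferase promoters are known for the antioxidant response element and the xenobiotic response element. Each runs from 250 bases before to 50 bases after the start of the gene, 5′ to 3′ on the strand of the gene, from RefSeq on GRCm38.p6. Gstk1 lies on the plus strand at chr6:42245685-42245984, and the others on the minus strand, Gstp1 at chr19:4037863-4038162, Gsta2 at chr9:78347096-78347395 and Gstm2 at chr3:107986371-107986670. Capitals mark GCGTG, the core of the xenobiotic response element.
Gstk1: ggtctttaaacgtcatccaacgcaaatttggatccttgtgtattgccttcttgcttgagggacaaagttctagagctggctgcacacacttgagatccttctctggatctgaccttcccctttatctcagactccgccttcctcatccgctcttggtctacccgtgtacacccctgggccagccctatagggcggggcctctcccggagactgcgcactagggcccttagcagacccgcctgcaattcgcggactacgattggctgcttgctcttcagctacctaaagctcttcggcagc
Gstp1: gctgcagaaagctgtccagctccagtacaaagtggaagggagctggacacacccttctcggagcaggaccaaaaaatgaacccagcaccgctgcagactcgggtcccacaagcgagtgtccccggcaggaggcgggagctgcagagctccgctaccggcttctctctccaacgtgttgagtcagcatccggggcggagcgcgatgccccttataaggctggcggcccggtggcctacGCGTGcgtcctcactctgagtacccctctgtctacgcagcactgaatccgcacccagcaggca
Gsta2: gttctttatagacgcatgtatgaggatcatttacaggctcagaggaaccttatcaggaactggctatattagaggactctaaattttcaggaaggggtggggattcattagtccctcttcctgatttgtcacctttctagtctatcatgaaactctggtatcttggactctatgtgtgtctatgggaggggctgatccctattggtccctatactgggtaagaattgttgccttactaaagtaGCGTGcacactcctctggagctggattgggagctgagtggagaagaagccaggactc
Gstm2: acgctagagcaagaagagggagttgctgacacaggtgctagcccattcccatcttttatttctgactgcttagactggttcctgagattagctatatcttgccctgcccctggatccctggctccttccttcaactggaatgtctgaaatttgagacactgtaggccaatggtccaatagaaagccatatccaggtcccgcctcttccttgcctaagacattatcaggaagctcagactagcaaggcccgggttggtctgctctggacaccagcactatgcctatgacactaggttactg
GCGTG and the antioxidant core TGACNNNGC were searched on both strands. GCGTG occurred in Gstp1, with its first base at position -13 from the start, and in Gsta2, at -7. TGACNNNGC occurred in none of the 4. Of all 32851 promoters searched, 32.4% held GCGTG and 12.4% held TGACNNNGC. Of the 71 promoters found for 61 of the 77 enzyme genes, 28.2% and 8.45% did. A match says only that these letters are present in the window.

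Gstp1, the pi-class enzyme, read 9.56 to 10.22 (median 10.01) on soy and 10.34 to 10.66 (median 10.59) on casein in wild type. The HCM arrays read 9.87 to 10.05 (median 10.00) on soy and 10.68 to 10.76 (median 10.72) on casein. The diets did not overlap in either genotype. Gstp1 rose by 0.59 ± 0.06 in wild type (adjusted p = 1.44e-08 in limma) and by 0.74 ± 0.07 in HCM (2.21e-10), and the interaction of 0.15 ± 0.09 did not pass (0.173).

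Gstk1, the kappa-class enzyme of mitochondria and peroxisomes, had the highest change of all members in wild type. It read 7.73 to 8.43 (median 8.28) on soy and 8.88 to 9.27 (median 9.16) on casein in wild type, with no overlap. In HCM it read 8.14 to 8.47 (median 8.31) on soy and 8.27 to 8.86 (median 8.54) on casein, with overlap. It rose by 0.90 ± 0.08 in wild type (adjusted p = 3.31e-10 in limma) and by 0.24 ± 0.08 in HCM (0.015), and the interaction was -0.67 ± 0.11 (2.49e-05). The HCM rise did not pass with the array set in the fit as a random block (0.134). On casein HCM the sexes read apart, though a contrast of the sexes within HCM was not fitted. The male casein HCM arrays averaged 8.75 ± 0.08 (SD, n = 4) and the female ones 8.33 ± 0.07 (SD, n = 4), beside 8.25 ± 0.10 (SD, n = 3) and 8.35 ± 0.18 (SD, n = 3) on soy.

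Gsto1, the omega-class enzyme that also reduces dehydroascorbate, rose by 0.39 ± 0.08 in wild type (adjusted p = 0.000262 in limma) and by 0.51 ± 0.09 in HCM (1.61e-05). It read 8.67 to 9.49 (median 9.35) on soy and 9.46 to 9.78 (median 9.62) on casein in wild type, and 9.29 to 9.46 (median 9.37) and 9.60 to 10.12 (median 9.94) in HCM. The HCM diets did not overlap, and the wild-type diets did. Gsta2, an alpha-class enzyme of the kind induced by electrophiles, fell by 0.71 ± 0.11 (8.85e-06) and by 0.61 ± 0.12 (9.13e-05). Its soy wild-type arrays spread widely, from 6.03 to 7.02 (median 6.79), and overlapped the casein values of 5.69 to 6.44 (median 5.96). In HCM it read 6.43 to 6.78 (median 6.62) on soy and 5.81 to 6.22 (median 6.02) on casein, with no overlap.

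Gsta4, the alpha-class enzyme for the lipid aldehyde 4-hydroxynonenal, read 7.14 to 7.42 (median 7.23) on soy HCM and 7.44 to 7.98 (median 7.71) on casein HCM. These did not overlap, and it rose by 0.44 ± 0.09 (adjusted p = 0.000146 in limma). In wild type it read 6.59 to 7.31 (median 7.14) and 6.87 to 7.44 (median 7.16), its change of 0.08 ± 0.08 did not pass (0.455), and the interaction was 0.36 ± 0.12 (0.0196). The theta-class gene Gstt2 read 6.51 to 6.68 (median 6.64) on soy HCM and 6.8 to 7.17 (median 7.01) on casein HCM, without overlap, and rose by 0.40 ± 0.06 (1.26e-06). The wild-type change of Gstt2 was -0.12 ± 0.05 (0.0736), and the interaction of 0.52 ± 0.08 passed (7.19e-06).

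The mu-class genes, which lie side by side on chromosome 3 and are close in sequence, depended on the probe set. Gstm2 read 9.12 to 9.73 (median 9.34) on soy and 8.68 to 9.11 (median 8.87) on casein in wild type, and 9.32 to 9.66 (median 9.56) and 7.95 to 8.83 (median 8.61) in HCM. The diets did not overlap in either genotype. This probe set fell by 0.47 ± 0.08 (adjusted p = 3.79e-05 in limma) and by 1.01 ± 0.09 (1.56e-10), opposite to the second one. Gstm1 read 10.61 to 11.25 (median 11.17) on soy wild type, 11.31 to 11.46 (median 11.33) on casein wild type, 11.22 to 11.40 (median 11.31) on soy HCM and 10.84 to 11.11 (median 11.04) on casein HCM. It rose by 0.24 ± 0.06 in wild type (0.00195) and fell by 0.31 ± 0.07 in HCM (0.00029), with no overlap in either, and its second probe set fell in both, by 0.40 and 0.39. For Gstm3 both probe sets fell in both genotypes, by 0.22 and 0.30 in wild type and by 0.47 and 0.33 in HCM. A direction for Gstm1 and Gstm2 is therefore uncertain.

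**Figure D3:**
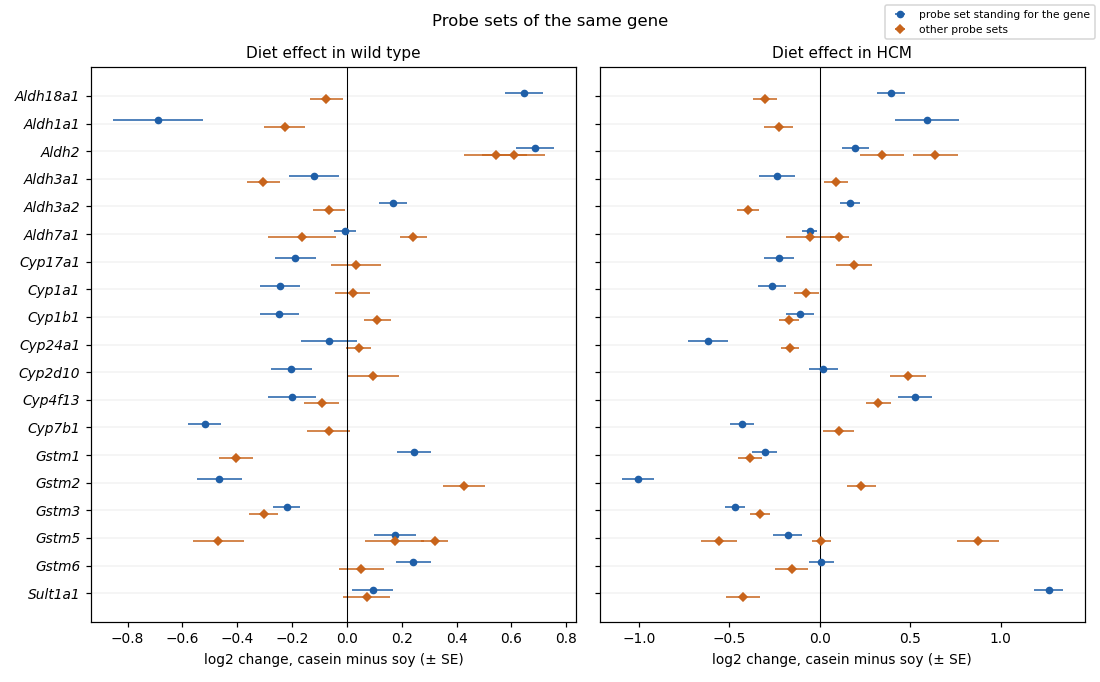
Diet effect (log2 change, casein minus soy, with bars of 1 standard error) for the 19 members with several probe sets, in wild type and in HCM; blue points are the probe set standing for the gene and orange diamonds are its other probe sets. The probe sets of Aldh2 and Gstm3 lie on the same side of 0 in both panels, and those of Gstm2 on opposite sides.

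Over the 19 members with several probe sets, 6 had at least 2 probe sets past the test in wild type, and 3 of these (Gstm1, Gstm2 and Gstm5) had them in opposite directions. In HCM 11 had at least 2, and 6 of these went opposite ways: Aldh18a1, Aldh1a1, Aldh3a2, Gstm2, Gstm5 and Sult1a1. The probe set names mark many of these as sharing sequence with other genes or as chosen under relaxed rules.

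Aldh2, the mitochondrial enzyme that clears acetaldehyde and 4-hydroxynonenal, rose in both genotypes on all 3 of its probe sets. It read 8.08 to 8.69 (median 8.62) on soy and 9.03 to 9.43 (median 9.22) on casein in wild type, with no overlap. The HCM arrays read 8.64 to 8.96 (median 8.88) on soy and 8.78 to 9.34 (median 9.04) on casein, with overlap. Aldh2 rose by 0.69 ± 0.07 in wild type (adjusted p = 8.39e-09 in limma) and by 0.20 ± 0.08 in HCM (0.0261). The other probe sets rose by 0.54 and 0.61 in wild type and by 0.34 and 0.64 in HCM. The interaction of the first probe set was -0.49 ± 0.10 (0.000337), those of the others, -0.20 and 0.03, did not pass, and its HCM change did not pass with the array set fitted as a random block (0.167).

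Aldh18a1, which makes the proline precursor pyrroline-5-carboxylate and does not act on xenobiotics, also rose in both genotypes. It is dim, at 4.81 to 5.11 (median 4.97) on soy wild type and 5.28 to 5.88 (median 5.69) on casein wild type. The wild-type diets did not overlap, while the HCM values of 5.08 to 5.30 (median 5.16) on soy and 5.22 to 5.88 (median 5.57) on casein did. It rose by 0.65 ± 0.07 in wild type (adjusted p = 2.77e-08 in limma) and by 0.39 ± 0.08 in HCM (6.72e-05). Its second, dimmer probe set was at -0.07 in wild type, where it did not pass, and fell by 0.30 in HCM.

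Aldh1a1, which oxidises retinaldehyde to retinoic acid, went opposite ways in the genotypes. It read 5.96 to 7.19 (median 7.08) on soy and 5.78 to 6.5 (median 6.24) on casein in wild type. In HCM it read 6.58 to 7.13 (median 6.90) on soy and 6.81 to 7.99 (median 7.63) on casein. The ranges overlapped in both genotypes, in wild type through the soy arrays at 5.96 and 6.29. The changes were -0.69 ± 0.16 in wild type (adjusted p = 0.00101 in limma) and 0.59 ± 0.18 in HCM (0.0048), and the interaction was 1.28 ± 0.24 (9.11e-05). The HCM rise did not pass with the array set fitted as a random block (0.0778), and the second probe set fell in both genotypes, by 0.23 each.

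Sult1a1, the phenol sulfotransferase, had the highest change of all members in HCM. It read 5.51 to 6.04 (median 5.75) on soy wild type, 5.78 to 5.97 (median 5.88) on casein wild type, 5.60 to 5.88 (median 5.70) on soy HCM and 6.69 to 7.28 (median 7.03) on casein HCM. Each casein HCM array lay above every other array, and the other combinations overlapped. It rose by 1.26 ± 0.08 in HCM (adjusted p = 2.31e-13 in limma) and changed by 0.09 ± 0.07 in wild type, which did not pass (0.314), and the interaction was 1.17 ± 0.11 (2.94e-09). The male and the female casein HCM groups averaged 6.98 ± 0.25 and 6.98 ± 0.14 (SD, n = 4 each). Its second probe set, with a mean of 3.63, fell by 0.43 in HCM. The casein HCM arrays are also those with the high Dap control, and its part in this change was not tested.

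Ugt2b34, a glucuronosyltransferase of steroids and drugs and a dim gene, read 4.14 to 4.42 (median 4.25) on soy and 3.75 to 4.19 (median 3.92) on casein in wild type, and 4.13 to 4.38 (median 4.26) and 3.77 to 3.99 (median 3.89) in HCM. The HCM diets did not overlap. It fell by 0.30 ± 0.06 (adjusted p = 0.000131 in limma) and by 0.38 ± 0.06 (1.19e-05). Ugt8a, which makes the galactosylceramide of myelin and is outside the rule for named genes, fell by 0.19 ± 0.04 and 0.21 ± 0.05, and Ugt2b5 did not pass in either genotype.

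**Figure D4:**
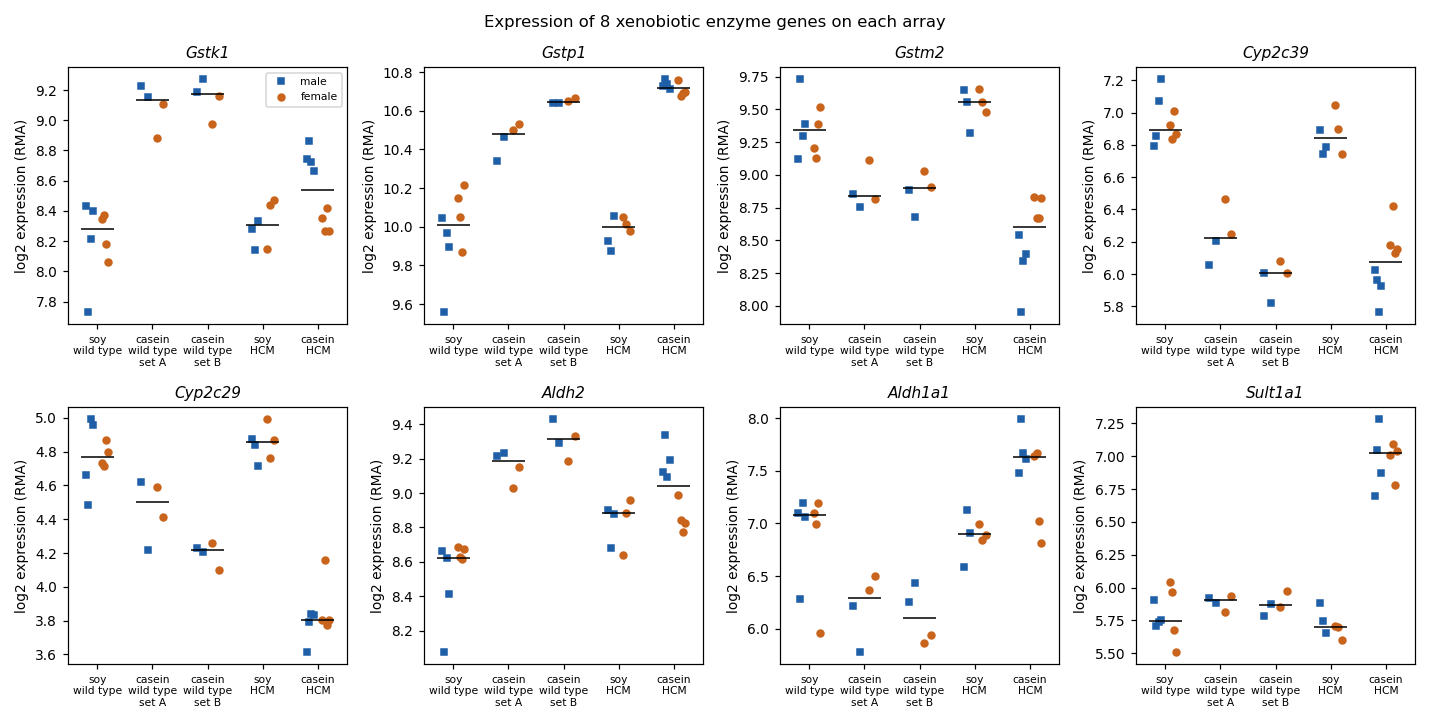
Log2 expression of 8 enzyme genes on each of the 30 arrays, by diet and genotype, with casein wild type divided into sets A and B; blue squares are male, orange circles female, and lines mark the median. Casein HCM stands above all other arrays for Sult1a1, and the casein arrays lie above the soy arrays for Gstp1 in both genotypes.

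Members were also counted by whether the arrays of the diets overlapped. In wild type every casein array lay above every soy array for 6 members (Aldh18a1, Aldh2, Cyp2d9, Gstk1, Gstm1 and Gstp1), and below for 7 (Cyp2a12, Cyp2b10, Cyp2b19, Cyp2c39, Cyp2f2, Cyp7b1 and Gstm2), against 6.01% and 5.45% of all genes. In HCM this held for 10 members above and 19 below, against 20.6% and 17.2% of all genes.

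The diet effects in the genotypes came from different arrays and could be set side by side. In both genotypes 8 members rose, against 12.4% of all genes: Aldh18a1, Aldh2, Aldh3a2, Cyp11a1, Cyp2d9, Gstk1, Gsto1 and Gstp1. With the array set fitted as a random block, Aldh3a2 passed in neither genotype. With it Cyp11a1 did not pass in wild type, nor Aldh2 and Gstk1 in HCM. The second probe set of Aldh3a2 fell by 0.40 in HCM. In both genotypes 21 members fell, against 13.1% of all genes, and 15 of these are Cyp genes. Of those with opposite calls, Aldh1a1, Cyp1a2, Cyp2d26 and Sult1b1 fell in wild type and rose in HCM, against 3.47% of all genes. None of these rises in HCM passed with the array set as a block (adjusted p 0.0778 to 0.179 in limma). Cyp4b1 and Gstm1 rose in wild type and fell in HCM, against 3.22%. With that block Cyp4b1 passed in neither genotype (0.19 and 0.107), and the second probe set of Gstm1 fell in both genotypes. Neither test passed for 11 members, against 23.1%, among them Gstm5, Gsta1 and Gstz1, the isomerase of tyrosine breakdown. Other probe sets of Gstm5 did pass, in opposite directions, at 0.32 and -0.47 in wild type and at 0.87 and -0.56 in HCM.

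Whether the diet effect differed between the genotypes was tested by the interaction. It passed for 35 of 77 members (45.5%), 16 higher and 19 lower, against 45.1% of all genes (25% higher and 20.1% lower), so that the share of members was at the level of the array as a whole. By family it passed for 17 of 40 Cyp, 10 of 15 Gst, 5 of 10 Aldh and 3 of 9 Sult genes and for no Ugt gene. The 6 members with the smallest p were Sult1a1, Gstt2, Gstm1 (-0.55 ± 0.09), Gstk1, Cyp4f13 (0.73 ± 0.13, adjusted p = 5.03e-05 in limma) and Aldh1a1. For Gstk1 and Gstm1 the change in HCM was below that in wild type, and for the other 4 it was above. With the array set fitted as a random block 16 members passed, where 22.6% of all genes did, and these 6 were among them. Second probe sets gave interactions of 0.41 for Cyp4f13, which passed, 0.02 for Gstm1 and -0.002 for Aldh1a1, which did not, and -0.50 for Sult1a1, which passed in the opposite direction.

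The casein wild-type sets were also used alone. Of the 47 members called in wild type, 34 were called in the same direction with set A alone, 43 with set B alone and 32 with each set alone, of which 10 were higher and 22 lower. None had opposite signs with the sets. With the array set fitted as a random block 28 members passed in wild type, where 27.3% of all genes did, and 36 in HCM, where 42.9% did. All 12 members named for the diet effect in wild type passed with each set alone. These 12, like the 47, had been picked by their calls with both sets together. Each run also kept the same soy wild-type arrays, so the runs are not independent checks.

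In males and females the diet effects were called for different numbers of members. In wild type 39 members passed in males (10 higher, 29 lower), against 40% of all genes (19.5% and 20.5%), and 26 in females (9 higher, 17 lower), against 25% (11.3% and 13.7%). In HCM 48 passed in males (17 higher, 31 lower), against 49.3% (25.8% and 23.5%), and 38 in females (15 higher, 23 lower), against 44.1% (23% and 21.1%). The test of the difference, the female minus the male diet effect over both genotypes, passed in limma for no member and for 0% of all genes, and 11 members had an unadjusted p under 0.05. The smallest p were those of Gstk1 (-0.38 ± 0.11, adjusted p = 0.199 in limma), Aldh2 (-0.33 ± 0.10, 0.216) and Cyp4a12b (0.31 ± 0.10, 0.227). Gstk1 changed by 1.02 ± 0.11 in male and 0.79 ± 0.11 in female wild type, and by 0.50 ± 0.12 in male HCM, while in female HCM its change was -0.03 ± 0.12 and did not pass. With array weights 3 members passed this test, Gstk1 (0.0323) and Aldh2 (0.0377) among them, and 142 of all 8251 genes did. The mean sex effect passed in limma for no member, against 0.267% of all genes, and 6 members had an unadjusted p under 0.05.

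HCM ventricles were compared with wild type on each diet from the same arrays as the diet effects, so these values are not independent of them. On soy 12 of 77 members passed (15.6%), 4 higher and 8 lower, against 25% of all genes (12.3% and 12.7%). This count was 6 with replicate 3 of female soy HCM left out, 7 with replicate 2 of the males left out and 24 with array weights. With array weights 3503 of all 8251 genes passed. On casein 37 passed (48.1%), 15 higher and 22 lower, against 49.6% (26.9% and 22.7%). On the probe sets used, no member changed the same way on both diets. The share of all genes with each pair of calls, on soy and on casein, was not counted. These pairs are therefore not shown to be particular to the members. Cyp1a2, Cyp2d26, Cyp4f13 and Gstt2 were lower in HCM on soy and higher on casein, and Aldh2, Cyp4b1 and Gstm1 were higher on soy and lower on casein. Other probe sets did not bear out all of these: an Aldh2 probe set of like level was higher in HCM on both diets (0.38 and 0.41), the second of Gstm1 passed on neither (0.13 and 0.15), and the second of Cyp4f13 passed on casein (0.35) and not on soy (-0.06).

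On soy the highest changes were those of Aldh2 (0.28 ± 0.08), Cyp4b1, a P450 that activates furans and aromatic amines (0.24 ± 0.08), and Gstm1 (0.21 ± 0.07). The lowest were Cyp2d10 (-0.37 ± 0.08), Cyp2j6 (-0.36 ± 0.10) and Cyp4f13 (-0.33 ± 0.09). Cyp2d10, of the drug-metabolising Cyp2d family, read 5.66 to 6.02 (median 5.84) on soy wild type and 5.27 to 5.66 (median 5.43) on soy HCM, ranges that lay just apart. Cyp4b1 read 7.89 to 8.65 (median 8.43) on soy wild type and 8.44 to 8.69 (median 8.59) on soy HCM, with overlap. Adjusted p in limma ran from 0.00171 for Cyp2d10 to 0.035 for Cyp4b1, and none of these 6 passed with the array set fitted as a random block (0.0973 to 0.314), where Gstt2 was the only member that did.

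**Figure D5:**
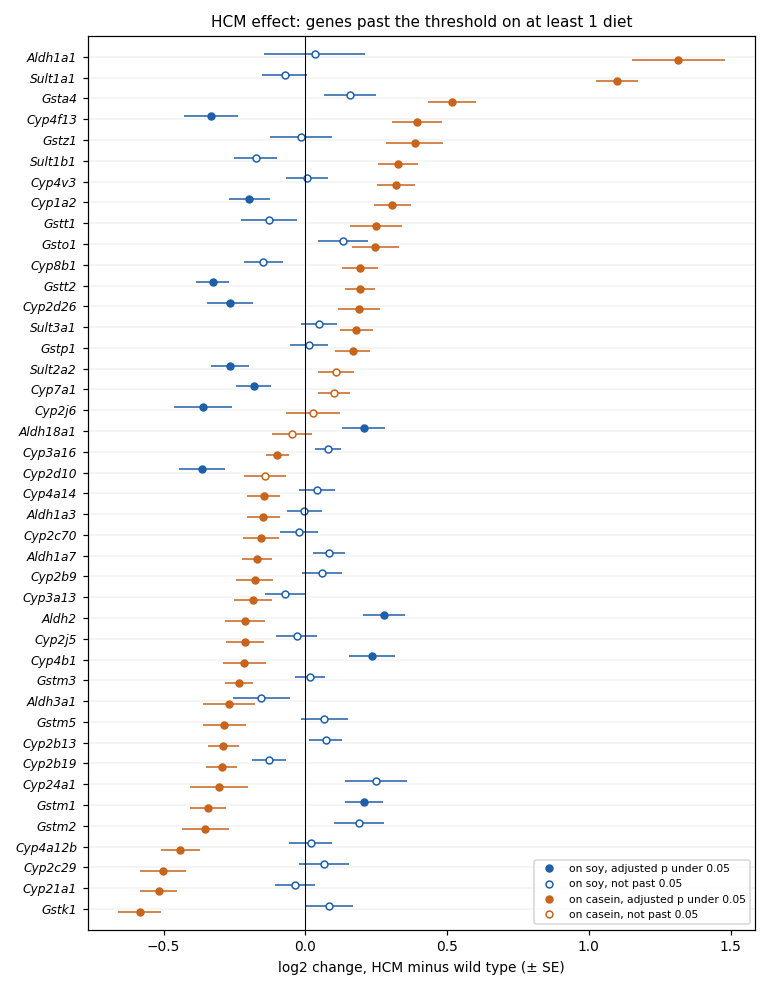
HCM effect as log2 change, HCM minus wild type, with bars of 1 standard error, for the members past the threshold on at least 1 diet; blue is soy, orange is casein, and filled points passed an adjusted p of 0.05. Aldh1a1 (1.32) and Sult1a1 (1.10) stand apart on casein, while their values on soy lie near 0.

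On casein Aldh1a1 was higher in HCM by 1.32 ± 0.16 (adjusted p = 1.83e-07 in limma), Sult1a1 by 1.10 ± 0.07 (4.19e-12) and Gsta4 by 0.52 ± 0.08 (1.17e-05). The second probe set of Sult1a1 was lower, at -0.35 (0.00152 over all probe sets), and that of Aldh1a1, at -0.10, did not pass (0.285). On soy the same genes gave 0.03 ± 0.18, -0.07 ± 0.08 and 0.16 ± 0.09, none of which passed. Gstk1 (-0.58 ± 0.08, 4.39e-07), Cyp21a1 (-0.52 ± 0.07, 2.61e-07) and Cyp2c29 (-0.50 ± 0.08, 9.03e-06) were lower in HCM on casein. Their values on soy, 0.08 ± 0.08, -0.04 ± 0.07 and 0.07 ± 0.09, did not pass.

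The wider xenobiotic system was described by a list of 80 further genes, of which 63 were measured. In wild type 14 rose and 18 fell (50.8%), and in HCM 20 rose and 17 fell (58.7%), shares near those of all genes. Of 9 genes that supply the cofactors of conjugation, none rose, 4 fell in wild type and 5 fell in HCM. Gclc, the catalytic subunit of the enzyme that limits glutathione synthesis, fell by 0.60 ± 0.05 in wild type (adjusted p = 1.1e-09 in limma) and by 0.30 ± 0.06 in HCM (6.73e-05). Ugp2, which makes UDP-glucose for glucuronidation, fell by 0.26 ± 0.10 (0.041) and 0.62 ± 0.11 (2.37e-05). Of 11 receptors and regulators, 1 rose and 4 fell in wild type, and 2 rose and 5 fell in HCM. Rxra, the partner of the xenobiotic nuclear receptors, fell by 0.33 ± 0.06 and 0.56 ± 0.06, and Maff, a small Maf protein that pairs with Nrf2, rose by 0.60 ± 0.10 in HCM.

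Other phase I enzymes were mixed, with 8 of 22 higher and 4 lower in wild type and 9 higher and 5 lower in HCM. Cbr1, a carbonyl reductase, rose by 0.70 ± 0.07 and 0.61 ± 0.08, and Ephx2, the soluble epoxide hydrolase, by 0.65 ± 0.12 and 0.55 ± 0.13. Akr1a1, an aldehyde reductase, rose by 0.42 ± 0.07 and 0.61 ± 0.07. Nqo1, a quinone reductase and a classical Nrf2 target, fell by 0.35 ± 0.11 and 0.68 ± 0.12. Akr1b8, an aldo-keto reductase, fell by 0.46 ± 0.07 in wild type and was at -0.16 ± 0.07 in HCM (adjusted p = 0.0577 in limma).

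Of 8 other phase II genes, 2 rose and 2 fell in wild type, and 5 rose and none fell in HCM. Mgst2, a microsomal glutathione transferase and leukotriene synthase, rose by 1.18 ± 0.08 in wild type (adjusted p = 1.09e-11 in limma) and by 0.57 ± 0.09 in HCM. Of 5 electron donors, 2 rose and 2 fell in wild type, and 2 rose and 1 fell in HCM. Cyb5a, the cytochrome b5 that supplies electrons to P450s, fell by 0.48 ± 0.12 in wild type (0.00166), which did not pass with set B alone (0.0553), and was at -0.22 ± 0.13 in HCM (0.155). The 8 efflux transporters gave 1 higher and 2 lower in wild type and 2 higher and 1 lower in HCM.

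Markers of other cells moved with diet as well. On casein in wild type 4 of 6 endothelial markers were higher and none lower, and in HCM 1 was higher and 3 lower. Smooth muscle markers gave 1 of 4 higher in wild type and 4 of 4 in HCM, with a summed linear level of 928 to 1740 on casein HCM and 558 to 733 on soy HCM. Of 5 macrophage markers, 1 was higher and 3 lower in wild type, and 1 and 1 in HCM. The 6 fibroblast markers gave 1 higher and 2 lower in wild type and 1 and 1 in HCM. Adipocyte markers gave none higher and 2 of 4 lower in wild type, and 1 lower in HCM, with Adipoq among the dim genes at 3.99 to 4.57. Red cell markers gave 1 of 3 lower in wild type and no call in HCM. Their part in the changes of the enzyme genes was not tested.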

How the data were processed

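Total RNA of left ventricle, extracted with TRI reagent and pooled from 2 animals per sample per the labels' protocols, was hybridized to MG_U74Av2 arrays. The authors deposited log2 values for each probe set. The submitters' processing notes name RMA and Affymetrix Expression Console; their versions were not given in these sources. RMA as a rule equalises the distributions of the arrays, so changes are relative to the other genes. Of 12488 probe sets, 66 were controls, 10833 had 1 gene symbol, 396 several and 1193 none in the platform annotation; 8 enzyme probe sets with several symbols were left out. All 77 symbols were found by Entrez number. Detection calls were not used here, and the number of arrays limits the precision.

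A limma model (R 4.3.3, limma 3.58.1) with 1 coefficient for each of the 8 groups was fitted to the 8251 genes of all 30 arrays (22 residual and 6.16 prior degrees of freedom), with Benjamini-Hochberg adjustment over all genes in each comparison. It was tested on simulated data with independent errors and no array sets. That test cannot show how the model does with the array sets found here. The members, gene lists and tests were chosen with earlier results of these data known. Genes were named by rule: up to 6 highest and 6 lowest called changes for each diet effect, 6 smallest p for the interaction, 3 highest and 3 lowest for the HCM and sex effects, 3 smallest p for diet by sex, the smallest p of a family not yet named, and 3 highest and 3 lowest of the further list for each diet effect. Alternatives were testing every probe set, a filter on the dimmest 40% of genes, added quantile normalization, centring, a replicate block, array weights, an intensity trend, the array set fitted as a random block (duplicateCorrelation, statmod 1.5.0), only the groups compared, the casein wild-type sets alone and leaving out each array. Set A or B alone for the interaction and for single genes was chosen after seeing the data.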

Additional observations from a re-analysis of the deposited data

Results flagged for a closer look

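The diet effect differed between wild type and HCM, by the interaction test, for Sult1a1 (1.17, adjusted p = 2.94e-09 in limma), Gstt2 (0.52, 7.19e-06), Gstm1 (-0.55, 2.1e-05), Gstk1 (-0.67, 2.49e-05), Cyp4f13 (0.73, 5.03e-05) and Aldh1a1 (1.28, 9.11e-05). The second probe sets gave -0.50 for Sult1a1 and 0.41 for Cyp4f13, which passed, and 0.02 for Gstm1 and -0.002 for Aldh1a1, which did not.

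Among 210 groups of 4 arrays, over 35 named genes, 17 held an array far from the other 3; chance gives about 5% of groups. Replicate 2 of male soy wild type was that array 6 times. It read 6.29 for Aldh1a1 (others 7.06 to 7.19), 7.43 for Cyp4f13 (6.68 to 6.78), 10.61 for Gstm1 (11.16 to 11.18), 6.70 for Cbr1 (6.29 to 6.36), 7.31 for Cyb5a (8.29 to 8.41) and 6.70 for Ugp2 (7.44 to 7.51). Replicate 4 of female soy wild type was that array 3 times, at 8.98 for Gsto1 (9.42 to 9.49), 5.96 for Aldh1a1 (6.99 to 7.19) and 7.64 for Cyp4a12b (7.45 to 7.47).

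On casein wild type, male replicate 1 read 4.62 for Cyp2c29 (4.21 to 4.23) and 4.04 for Cyp2j6 (4.23 to 4.24). Male replicate 2 read 6.76 for Ugp2 (7.26 to 7.29), and female replicate 3 read 7.60 for Cyp4a12b (7.26 to 7.28). On casein HCM, female replicate 1 read 4.67 for Cyp7b1 (4.60 to 4.61), female replicate 2 read 4.16 for Cyp2c29 (3.77 to 3.81), female replicate 4 read 7.22 for Cyp4f13 (6.85 to 6.91) and male replicate 2 read 9.51 for Ephx2 (9.03 to 9.10).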

How the results depend on the processing

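Without the dimmest 40% of genes, fewer members were tested, 34, among 4951 genes. The diet effect in wild type was then called for 24 members and 2697 of all genes, and that in HCM for 28 and 3295. The interaction was called for 20 and 2464, the HCM effect on soy for 7 and 1438 and that on casein for 22 and 2743. With the array set fitted as a random block (consensus correlation 0.167) 28 members were called for the diet effect in wild type, against 27.3% of all genes. The interaction was called for 16 (against 22.6%), the HCM effect on soy for 1 (3.14%) and that on casein for 17 (29.3%). With array weights the HCM effect on soy was called for 24 members and 3503 of all 8251 genes. Diet by sex was called there for 3 members and 142 of all genes. For these counts the cause was not tested. Leaving out 1 array at a time gave 42 to 50 calls for the diet effect in wild type and 48 to 57 in HCM. The interaction gave 30 to 37. The HCM effect gave 33 to 41 on casein and 6 to 15 on soy. On soy it gave 7 without male soy HCM replicate 2 and 6 without female soy HCM replicate 3. The sex effect and diet by sex stayed at 0. For these runs the share of all genes is given only for that without male soy wild-type replicate 2, above. The replicate numbers did not pair the samples: deviations of same-numbered arrays correlated at a median of -0.002 over 99 pairs (-0.57 to 0.63). With the number as a replicate block the diet effect was called for 45 members in wild type and 52 in HCM. Of all genes 3841 and 4999 were called. The interaction was called for 34 members and 3660 genes. The HCM effects on soy and casein were called for 11 and 35 members, and for 1827 and 4063 genes. Calls for sex and diet by sex were 0 among the members, and none of the 58 named values changed its call. No named value changed sign under any alternative run, but each run read a gene from the same probe set. Quantile normalization, centring, an intensity trend and testing among all probe sets changed no named call. These runs therefore do not cover the choice of probe set. For the diet effect in HCM, other probe sets of Gstm2 (0.23), Sult1a1 (-0.43) and Aldh1a1 (-0.23) were called in the opposite direction. The named values that lost their call were mostly HCM effects on soy, and they did so in 7 of 58 cases with the set block and in 13 of 1740 with 1 array left out. Array weights brought 2 diet by sex values past the threshold. The calls of single dim genes are the most limited by signal over background.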
